A study of Mus musculus with 12 samples.

Results

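The genes described here are Gapdh, Rps18, B2m and Eef1a1, 4 genes commonly used to set the level of other transcripts, on a focused cDNA array hybridised with mouse liver RNA. Their members are all spots that carry one of these names, with or without a suffix for the probe position, in both sets of spots printed for each mouse. This gave 16 of the 396 spots and 4 of the 330 named genes. Gapdh had 8 spots, 4 of a probe named Gapdh_3' and 4 of a probe named Gapdh_5', divided evenly between sets A and B. Rps18 had 4 spots, 2 in each set, Eef1a1 had 1 in set A and 2 in set B, and B2m had 1, in set A.

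The livers came from 12 male ApoEshl mice, labelled as 7 to 8 weeks old, whose line lacks apolipoprotein E through a spontaneous defect of Apoe that every mouse here carries. The fucoidan group was 6 mice that ate, for 12 weeks, a high-fat diet with 5% fucoidan (a sulphated sugar polymer from brown seaweeds). The HFD group was 6 mice that ate the high-fat diet alone for the same time. No wild-type liver and no liver on normal chow was analysed here, so the genes are described only within this defect and this diet. RNA of each mouse was labelled with 1 dye and hybridised alone. All arrays of both groups lay on 1 slide image, the HFD arrays in its first blocks and the fucoidan arrays in its last, so the group and its place there cannot be told apart.

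A reference gene is a transcript that cells need at all times and that is therefore read beside the transcript of interest to cancel differences in how much RNA was loaded. Its use rests on a steady level between the samples compared, which has to be measured in each tissue and treatment. The 4 genes take part in different processes. Gapdh encodes glyceraldehyde-3-phosphate dehydrogenase, an enzyme shared by glycolysis and gluconeogenesis, both of which the liver adjusts to feeding. Rps18 encodes a protein of the small ribosomal subunit, and Eef1a1 encodes the elongation factor that brings aminoacyl-tRNA to the ribosome. B2m encodes beta-2-microglobulin, the light chain of MHC class I molecules, whose transcript answers to interferons.

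In RefSeq's GRCm38.p6, the annotated gene Gapdh lies at chr6:125161852-125166467, Rps18 at chr17:33951998-33955665, B2m at chr2:122147687-122153082 and Eef1a1 at chr9:78478453-78481724. The probe sequences were not in the sources used here, so no probe was placed on its transcript beyond the 3' and 5' in the Gapdh names. The start regions of the 4 genes are shown because a reference is chosen for steady transcription, and they differ in whether a TATA motif stands near the start. Each line gives 110 of the 300 bases of RefSeq's promoter window, 5′ to 3′ on the gene's strand, with TATATAA in capitals. Gapdh is read from chr6:125165724-125165833 and Rps18 from chr17:33955616-33955725, both on the minus strand, B2m from chr2:122147627-122147736 on the plus strand and Eef1a1 from chr9:78481675-78481784 on the minus strand. The Gapdh window lies wholly inside the annotated gene, downstream of the outermost start given above, while the other 3 windows straddle the start of their gene.
Gapdh: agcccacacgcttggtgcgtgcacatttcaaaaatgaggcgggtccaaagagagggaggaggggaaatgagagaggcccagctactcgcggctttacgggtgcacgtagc
Rps18: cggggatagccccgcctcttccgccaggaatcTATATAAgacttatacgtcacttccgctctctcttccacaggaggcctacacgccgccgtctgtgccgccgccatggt
B2m: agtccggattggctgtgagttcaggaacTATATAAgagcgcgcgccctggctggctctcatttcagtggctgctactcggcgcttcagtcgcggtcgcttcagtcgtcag
Eef1a1: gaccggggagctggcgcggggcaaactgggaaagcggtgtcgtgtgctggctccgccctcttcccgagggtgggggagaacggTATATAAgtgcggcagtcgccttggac

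TATATAA, searched on both strands of the 300 bases, began 28 bases before the window's start site in Rps18 and 32 bases before it in B2m. In Eef1a1 it began 23 bases after that site, and the window of Gapdh did not hold these letters. Of 32851 mouse promoter windows of the same length, 1065 held the motif on either strand, or 3.24%. The match describes letters in the window and says nothing on which start the liver uses.

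The deposited raw table holds 3 numbers per spot and array, the foreground, the local background and a listed difference. On 41 gene spots of the array the listed difference departed by more than 0.5 from foreground minus background, or a foreground lay above 65535, the 16-bit maximum, on at least 1 array, and these are called failed spots. None of the 16 member spots failed, in any of their 192 cells, and their highest foreground was 42291. Median foreground over gene spots was 195.5 ± 20.4 in the fucoidan group and 195.2 ± 25.2 in the HFD group (mean ± SD of 6 arrays each, p = 0.987 in a two-sided exact permutation test). Of the 3 hepatocyte markers on the array, Apoa1 and Apoa2 were above the detection limit on all 12 arrays, and Hnf4a, which rested on a failed spot, on 8. Precision is limited by the number of arrays, and in whole liver fewer cells of a type and less RNA per cell cannot be told apart.

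Member spots nevertheless shared numbers with spots of other genes. For 6 member spots, a spot of another gene listed the same local background on all 12 arrays. Mapk8, a stress-activated kinase, shared it with the Rps18 spot of set A at column 4, row 16. Abca1, a cholesterol exporter, and Jun, a partner in AP-1, shared it with the Rps18 spots of set B. Acss2, which makes acetyl-CoA from acetate, shared it with the Gapdh_3' spot of set A at column 3, row 7. Acat2, a thiolase, shared it with the Gapdh_3' spot of set A at column 11, row 18 with the groups exchanged, so that each fucoidan value of Acat2 carried the background of the HFD mouse of the same number and each HFD value that of the fucoidan mouse. All 4 Rps18 spots, 2 of the 8 Gapdh spots and none of the B2m, Eef1a1 and Gapdh_5' spots were involved. Over all 62481 pairs of gene spots, 14 shared every background and 2 shared every background with the groups exchanged.

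The foregrounds in these 6 pairs of spots differed by whole multiples of 100 in 72 of 72 cells, of which 31 were equal. Jun exceeded its Rps18 spot by 2000, 1500, 3100, 1900, 2200 and 1800 intensity units in fucoidan replicates 1 to 6, and by 0, −800, 0, 0, 100 and −800 in HFD replicates 1 to 6. Mapk8 equalled its Rps18 spot on 8 arrays and exceeded it by 2100 to 5700 on the other 4. Between member spots and every other gene spot, in the same order or with the groups exchanged, 1.02% of 135408 cells differed by a whole multiple of 100, and no pair did so on more than 3 of 12 arrays. Of the 6 partner spots, that of Mapk8 passed the check and the others were failed spots, while the member spots passed throughout. Which spot of a pair holds the scanned value was not tested.

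As foreground minus local background, before any scaling, the intensity of each member overlapped between the groups. Gapdh, averaged over its spots by probe, had 10050, 11988 and 16208 intensity units in the lowest, median and highest fucoidan mouse, against 7017, 9670 and 13898 in HFD mice. Rps18 had 1713, 2225 and 3349 units in fucoidan mice, against 1307, 1888 and 2291 in HFD mice. B2m had 25941, 29058 and 42172 units in fucoidan mice, against 22278, 29696 and 35644 in HFD mice. For B2m the median mouse was lower with fucoidan, unlike for Gapdh and Rps18. Eef1a1 had 12557, 14428 and 22000 units in fucoidan mice, against 9987, 14098 and 18200 in HFD mice. Fucoidan replicate 3 was the highest and HFD replicate 1 the lowest array for each of the 4 genes. Over the 12 mice the coefficient of variation was 16.8% for B2m, 20.04% for Eef1a1, 24.2% for Gapdh and 25.8% for Rps18, and the highest mouse stood above the lowest by 1.89, 2.20, 2.31 and 2.56 times in the same order of genes. A probe's own brightness enters its intensity, so the levels of different genes are not set against each other.

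Without scaling between arrays, after background correction, none of the 4 genes differed between the groups in limma. Gapdh averaged 13.56 ± 0.29 log2 units in the fucoidan group and 13.29 ± 0.38 in the HFD group (SD, n = 6 each), a difference of 0.27 (SE 0.19, adjusted p = 0.632). Rps18 averaged 11.24 ± 0.33 in the fucoidan group and 10.89 ± 0.26 in the HFD group, a difference of 0.35 (SE 0.17, adjusted p = 0.421). Rps18 stood above the HFD mean in 5 of 6 fucoidan mice. B2m averaged 14.93 ± 0.26 in the fucoidan group and 14.83 ± 0.22 in the HFD group, a difference of 0.10 (SE 0.15, adjusted p = 0.795). Eef1a1 averaged 13.89 ± 0.28 in the fucoidan group and 13.77 ± 0.28 in the HFD group, a difference of 0.12 (SE 0.17, adjusted p = 0.795). Of all 181 genes tested on this scale, 6.63% were called at an adjusted p of 0.05, and 0 of the 4 members. An unadjusted p under 0.05 in limma was held by 23 of the 181 genes and by 0 of the 4 members. By exact permutation 0 of the 4 members lay under 0.05 too. The share of all genes under it by that test is not given here. The 95% interval of the difference reached from −0.14 to 0.68 for Gapdh, from −0.03 to 0.72 for Rps18, from −0.22 to 0.42 for B2m and from −0.24 to 0.48 for Eef1a1.

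**Figure D1:**
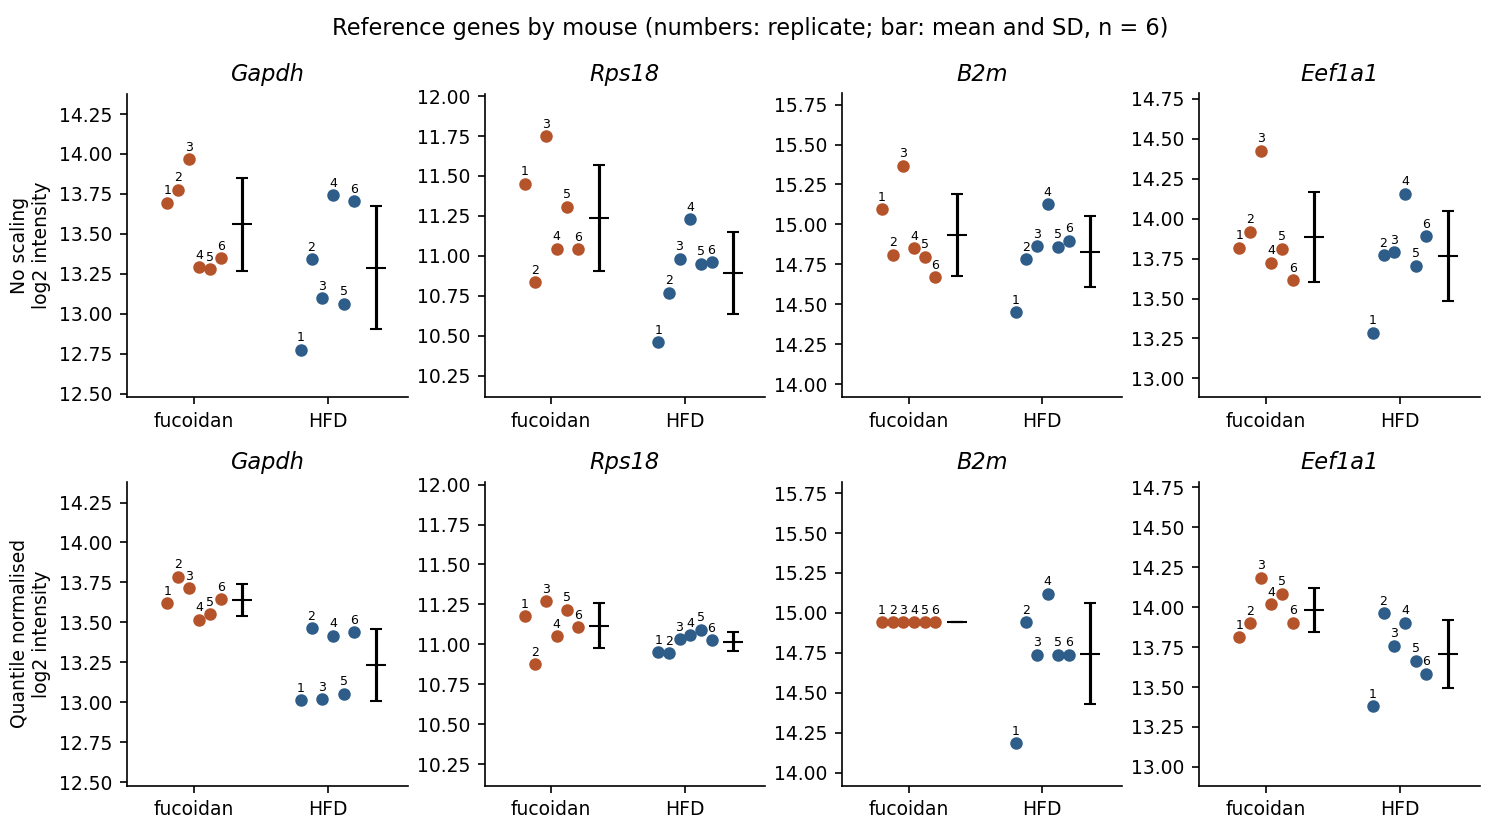
Log2 intensity of the 4 genes in each mouse (points, numbered by replicate), with the mean and SD of each group of 6, without scaling between arrays (top) and after quantile normalisation (bottom). The groups overlap in every top panel, and in the bottom row those of Gapdh separate, with means of 13.64 for fucoidan and 13.23 for HFD, while the 6 fucoidan values of B2m are equal at 14.94.

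After quantile normalisation, which gives every array the same set of values, Gapdh was the 1 gene of the 4 that differed between groups. Gapdh had 13.52, 13.63 and 13.79 log2 units in the lowest, median and highest fucoidan mouse, against 13.01, 13.24 and 13.46 in HFD mice. The groups did not overlap, and the share of all genes without overlap on this scale is not given here. The difference was 0.41 (SE 0.10, fold 1.32, limma adjusted p = 0.0320, higher than the HFD mean in 6 of 6 fucoidan mice). Of the 181 genes, 3.87% were called higher with fucoidan on this scale, and of the 4 members 1 was called. The call on Gapdh was lost without HFD replicate 1, 3 or 5 or fucoidan replicate 2 or 3, each left out in turn, with differences from 0.35 to 0.39 and adjusted p from 0.0711 to 0.0737. Of the other cell type lists, 1 marker was called in the same fit, Cfd, an adipocyte transcript that rested on a failed spot and fell by 0.60 (adjusted p = 0.00600). Of the 3 adipocyte markers tested, Fabp4 differed by 0.03 (limma adjusted p = 0.935) and Lpl by −0.18 (limma adjusted p = 0.569). The summed intensity of the 7 adipocyte markers on the array includes that failed Cfd spot. This sum was 3497 to 4776 units in fucoidan mice and 4385 to 5962 in HFD mice. Adipoq, Lep, Retn and Plin1 were above the detection limit on 0 arrays. The part of the sum in the Gapdh difference was not tested.

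The 3 remaining genes had positive differences that did not pass. Eef1a1 averaged 13.98 ± 0.14 log2 units in the fucoidan group and 13.71 ± 0.21 in the HFD group (SD, n = 6 each), a difference of 0.28 (SE 0.11, limma adjusted p = 0.133), above the HFD mean in 6 of 6 fucoidan mice. Rps18 averaged 11.12 ± 0.14 in the fucoidan group and 11.02 ± 0.06 in the HFD group, a difference of 0.10 (SE 0.07, adjusted p = 0.467). B2m averaged 14.94 in the fucoidan group, with an SD of 0, and 14.75 ± 0.31 in the HFD group, a difference of 0.20 (SE 0.13, adjusted p = 0.375). The fucoidan values of B2m were equal because exactly 3 gene spots were brighter than B2m on each of those arrays, and quantile normalisation gives a spot the value of its rank. In HFD mice 2 to 7 spots were brighter than B2m.

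Read spot by spot on the quantile scale, the difference was positive at 16 of 16 member spots, from 0.04 to 0.47. Most of these are replicate prints of a gene read with the same RNA, 8 of them of Gapdh, so they are not 16 independent results. Of all genes tested on this scale 59.1% lay above 0. The spots called were 5 of 16, all of Gapdh, where 5.37% of all gene spots tested, these 5 included, were called higher. Of them 3 were Gapdh_3' spots and 2 were Gapdh_5' spots. The smallest adjusted p was that of the Gapdh_3' spot of set A at column 3, row 7 (0.33, SE 0.06, limma adjusted p = 0.00536), and the largest difference was that of the Gapdh_5' spot of set B at column 8, row 12 (0.47, SE 0.13, adjusted p = 0.0413). The 3 Gapdh spots that missed the threshold had differences from 0.40 to 0.45, inside the range of the called ones. Without scaling between arrays 0 of the 16 spots were called in limma, where 5.85% of all gene spots tested were called. An unadjusted p under 0.05 was held by 2 of the 16, both of Rps18. The share of all gene spots under that unadjusted threshold is not given here.

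With the failed spots left out before normalisation, no member spot was called and the differences drew together around 0. They reached from −0.06 to 0.16 and were positive at 12 of 16 spots, and 0 of the 171 spots then tested (0%) passed in limma, with 20 at an unadjusted p under 0.05 and 0 of them members. Gapdh as a gene averaged 13.46 ± 0.06 log2 units in the fucoidan group and 13.38 ± 0.11 in the HFD group, a difference of 0.07 (SE 0.06, limma adjusted p = 0.653) with a 95% interval from −0.07 to 0.21. The difference was 0.06 for Rps18, 0.08 for B2m and −0.03 for Eef1a1. No member spot was removed in this step, so only the spots around them changed.

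**Figure D2:**
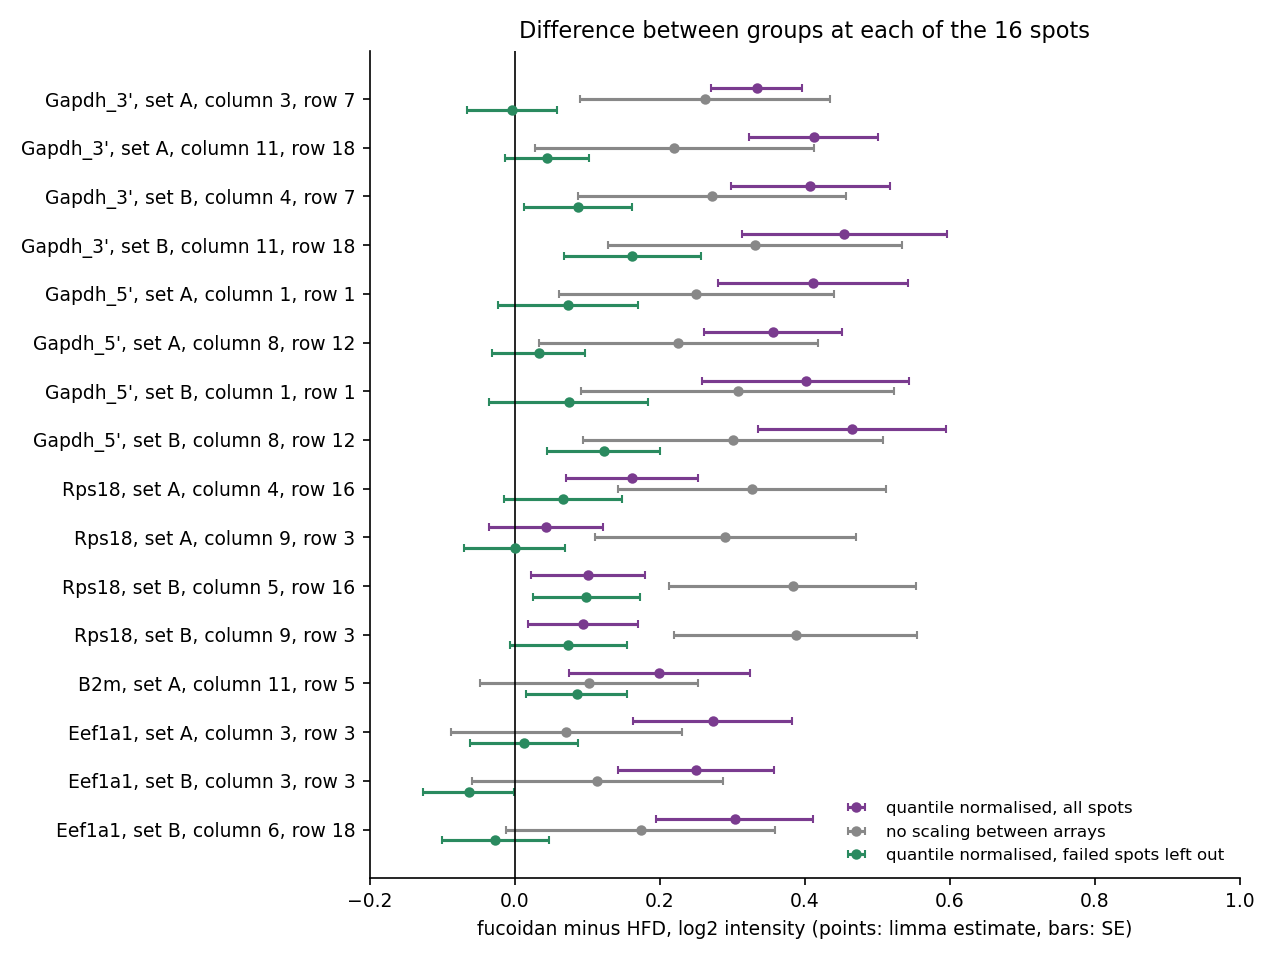
Fucoidan minus HFD log2 intensity (horizontal axis) at each of the 16 member spots, as limma estimates with SE, after quantile normalisation of all gene spots, without scaling, and after quantile normalisation without the failed spots. The first lie from 0.04 to 0.47, with the Gapdh spots highest, and the last lie from −0.06 to 0.16.

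The ranks that quantile normalisation reads were counted for each array. The Gapdh_3' spot of set A at column 3, row 7 had 2, 3 and 4 failed spots brighter than itself in the lowest, median and highest fucoidan mouse, against 7, 9 and 11 in HFD mice. The groups did not overlap, and since this spot was chosen for its normalised values, which its rank sets, the count is given as a description with no test. Of spots that passed the check, 14 to 18 were brighter than that Gapdh spot in fucoidan mice and 14 to 17 in HFD mice, with equal group means. The Gapdh_5' spot of set A at column 1, row 1 had 1 to 2 brighter failed spots in fucoidan mice and 4 to 10 in HFD mice. The Eef1a1 spot of set A had 1 to 3 in fucoidan mice and 3 to 10 in HFD mice. For the dimmer Rps18 spot of set A at column 4, row 16, the counts were 11 to 18 in fucoidan mice and 16 to 19 in HFD mice, which overlap.

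**Figure D3:**
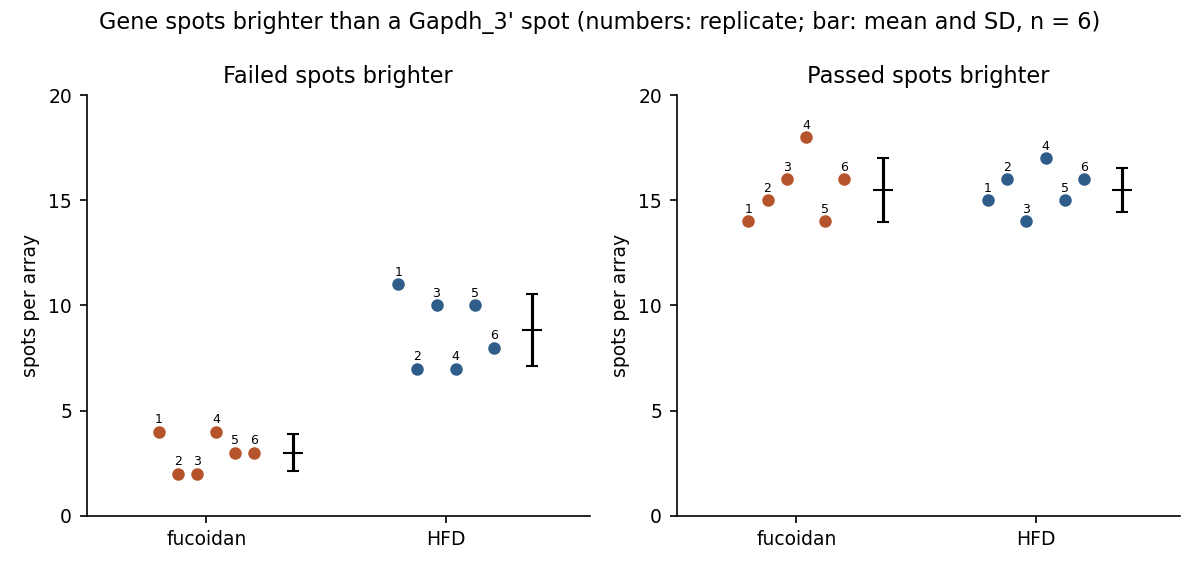
Number of gene spots per array (vertical axis) that were brighter than the Gapdh_3' spot of set A at column 3, row 7, split into failed spots (left) and spots that passed the check (right), by mouse with the mean and SD of each group of 6. Failed spots number 2 to 4 in fucoidan mice and 7 to 11 in HFD mice, and passed spots 14 to 18 and 14 to 17.

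Replicate spots of a gene stood at different levels within an array but followed one another across mice. Within an array the SD between spots had a median of 0.30 for the 8 Gapdh spots, 0.14 for Rps18 and 0.22 for Eef1a1. It was 0.27 for the Gapdh_5' spots alone and 0.15 for the Gapdh_3' spots alone. After the mean of each spot and of each array was taken out, the unscaled log2 values of the 8 Gapdh spots had a remaining SD of 0.078, against a pooled SD between mice of 0.34 within groups, 4.36 times as large. The spread between mice is unscaled and so includes factors that act on a whole array. The same remainder was 0.061 for the 4 Rps18 spots, where mice spread by 0.30, and 0.098 for the 3 Eef1a1 spots, where mice spread by 0.28. Pairs of spots of 1 gene correlated over the 12 arrays at 0.905 to 0.997 for Gapdh, 0.947 to 0.993 for Rps18 and 0.865 to 0.917 for Eef1a1, as a description of spots that share an RNA and a slide. B2m, with 1 spot, allowed no such measure.

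The sets differed in level in the same direction for each gene printed in both. Set B minus set A was −0.22 ± 0.12 log2 units for Gapdh in the fucoidan group and −0.28 ± 0.12 in the HFD group (SD, n = 6 each), below 0 in 12 of 12 mice. For Rps18 it was −0.19 ± 0.09 in the fucoidan group and −0.27 ± 0.09 in the HFD group, and for Eef1a1 −0.30 ± 0.08 in the fucoidan group and −0.37 ± 0.16 in the HFD group, both below 0 in 12 of 12 mice. The offset did not differ detectably between the groups for any of these (5 comparisons counting the Gapdh probes apart, two-sided exact permutation p from 0.175 to 0.372). B2m was printed in set A alone, so its ratio to the other genes mixes the sets.

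The probes at the ends of Gapdh moved together. The log2 ratio of Gapdh_3' over Gapdh_5', averaged over sets, was −0.46, −0.40 and −0.38 in the lowest, median and highest fucoidan mouse, against −0.48, −0.42 and −0.31 in HFD mice. The means were −0.41 ± 0.03 in the fucoidan group and −0.41 ± 0.06 in the HFD group (SD, n = 6 each), a difference of 0.00038 (two-sided exact permutation p = 0.996). Over all 12 mice the ratio had an SD of 0.044. Each probe's own brightness enters the ratio, so its level is not a measure of transcript ends, and the balance between the ends is read only between mice.

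Ratios between the 4 genes within an array cancel any factor that scales the whole array, and 6 were computed on unscaled values. The steadiest was B2m over Eef1a1, with log2 ratios of 0.89, 1.02 and 1.28 in the lowest, median and highest fucoidan mouse, against 0.97, 1.04 and 1.16 in HFD mice. Its difference between groups was −0.02 (SE 0.07, two-sided exact permutation p = 0.799) and its SD over the 12 mice was 0.11. The widest was Gapdh over Rps18, with an SD of 0.28 over the 12 mice and a difference of −0.08 (SE 0.17, p = 0.654 by the exact permutation test).

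The ratio of Rps18 over B2m stood apart between the groups before adjustment. It was −3.98, −3.64 and −3.49 in the lowest, median and highest fucoidan mouse, against −4.01, −3.92 and −3.88 in HFD mice, where the 6 values lay close together with an SD of 0.05. The fucoidan mice spread with an SD of 0.17, and 5 of 6 lay above every HFD mouse. The difference was 0.24 (SE 0.07, two-sided exact permutation p = 0.0130). Adjusted by Benjamini-Hochberg over the 6 ratios, that permutation p was 0.0779. In limma across all genes scaled to B2m, Rps18 did not pass (adjusted p = 0.146), and without fucoidan replicate 2, the 1 mouse among the HFD values, the difference was 0.30 with an adjusted p of 0.0299. Over the alternatives that kept every mouse the adjusted p ran from 0.0719 to 0.529. Every Rps18 spot is one of those that share numbers with another gene's spot, so no Rps18 value without such spots could be had.

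The other ratios lay between these. Rps18 over Eef1a1 differed by 0.23 (SE 0.11, two-sided exact permutation p = 0.0714), Gapdh over B2m by 0.17 (SE 0.12, exact p = 0.201) and Gapdh over Eef1a1 by 0.15 (SE 0.10, exact p = 0.175). Fucoidan replicate 2 was the lowest mouse of its group for both ratios with Rps18 on top and the highest for Gapdh over B2m and Gapdh over Rps18.

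**Figure D4:**
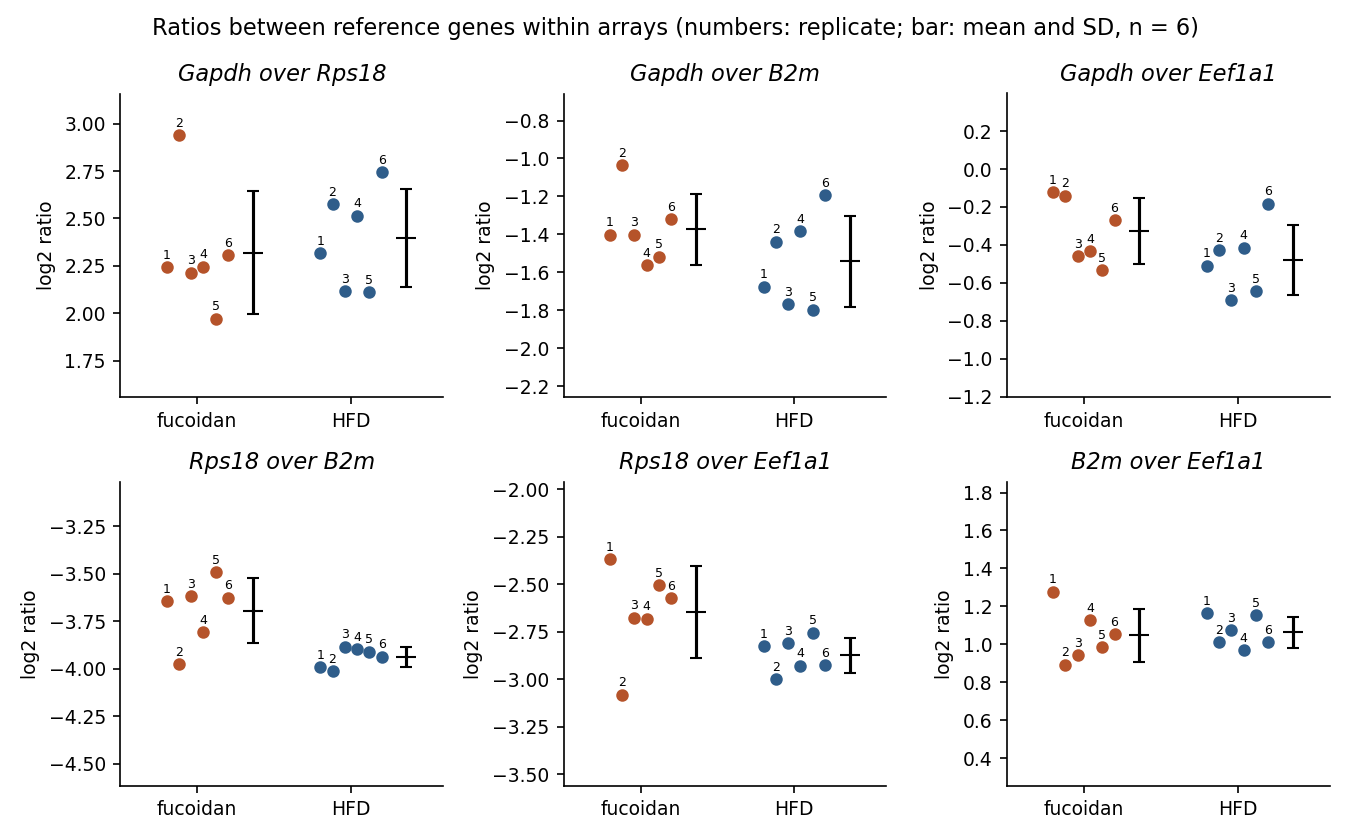
Log2 ratios between the 4 genes within each array, by mouse (points, numbered by replicate) with the mean and SD of each group of 6; every panel spans the same height on its vertical axis. B2m over Eef1a1 is narrowest, with an SD of 0.11 over the 12 mice, and Gapdh over Rps18 widest, with 0.28.

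Ranked by the mean SD of its log2 ratios to the other 3, Eef1a1 (0.170) and B2m (0.170) stood together ahead of Rps18 (0.223) and Gapdh (0.231). With each of the 12 mice left out in turn, B2m and Eef1a1 shared the first places and Gapdh and Rps18 the last 2 in 12 of 12 cases. Within each pair the order changed with the mouse left out, B2m leading in 8 cases and Eef1a1 in 4. Against 143 other genes carried by no failed spot, the median SD of the ratio was 0.210 for Eef1a1, 0.222 for B2m, 0.270 for Gapdh and 0.308 for Rps18. Actb (cytoskeletal actin), Rplp0 (a protein of the large ribosomal subunit), Hprt (purine salvage) and Pgk1 (phosphoglycerate kinase) are further customary references on the array. Among these 8 genes, the mean SD of the ratios to the other 7 was lowest for Eef1a1 (0.183), Rplp0 (0.184) and B2m (0.184) and highest for Pgk1 (0.239) and Actb (0.257), with Hprt at 0.191, Gapdh at 0.199 and Rps18 at 0.236.

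The order of the 4 genes by spread between mice depended on the scale. Without scaling, the pooled SD within groups was 0.24 for B2m, 0.28 for Eef1a1, 0.30 for Rps18 and 0.34 for Gapdh, and their ranks from the lowest spread among 181 genes were 44, 74, 83 and 104. After quantile normalisation it was 0.11 for Rps18, 0.17 for Gapdh, 0.18 for Eef1a1 and 0.22 for B2m, at ranks 13, 59, 63 and 95. After scaling to the median it was 0.17 for Eef1a1, 0.18 for B2m, 0.19 for Gapdh and 0.28 for Rps18, at ranks 46, 53, 59 and 105. Rps18 was thus among the steadiest genes on one scale and below the middle on another, and the median SD of all genes tested was 0.31, 0.22 and 0.25 on these 3 scales. Without the failed spots, the quantile normalised SD was 0.09 for Gapdh and Eef1a1 and 0.10 for Rps18 and B2m, at ranks 7, 9, 16 and 14 of 147, where the median gene had 0.18.

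Each of the 4 genes was then used alone to scale the arrays, and the rest of the table was read against it. Scaled to B2m, the median gene of the remaining 180 shifted by −0.01 log2 units between the groups and 48.3% of genes lay above 0, and scaled to Eef1a1 the median shifted by −0.03 with 41.7% above 0. Scaled to Gapdh the median shifted by −0.18 and 19.4% of genes lay above 0. Scaled to Rps18 the median shifted by −0.26 and 10.6% lay above 0. On values with no scaling the median gene shifted by 0.09, with 67.4% above 0. Scaling to a gene subtracts that gene's own unscaled difference from every other gene, so these shifts restate the unscaled differences of the members and add no evidence on them.

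The number of genes called at an adjusted p of 0.05 in limma changed less than the median. It was 13 of 180 (7.22%) scaled to Gapdh, with 2 higher and 11 lower in the fucoidan group, 14 (7.78%) scaled to Rps18, with 2 higher and 12 lower, 14 (7.78%) scaled to B2m, with 4 higher and 10 lower, and 12 (6.67%) scaled to Eef1a1, with 4 higher and 8 lower. None of the 3 other members was among them under any of the 4. Failed spots carried all of the calls scaled to Gapdh or Rps18, 12 of 14 scaled to B2m and 10 of 12 scaled to Eef1a1. Scaled to Rps18, the count was 90 without fucoidan replicate 2 against 14 with every mouse kept. With the failed spots left out, limma and exact permutation tests called 0 genes under each of the 4 references, and in limma 19, 32, 10 and 10 genes had an unadjusted p under 0.05 for Gapdh, Rps18, B2m and Eef1a1.

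**Figure D5:**
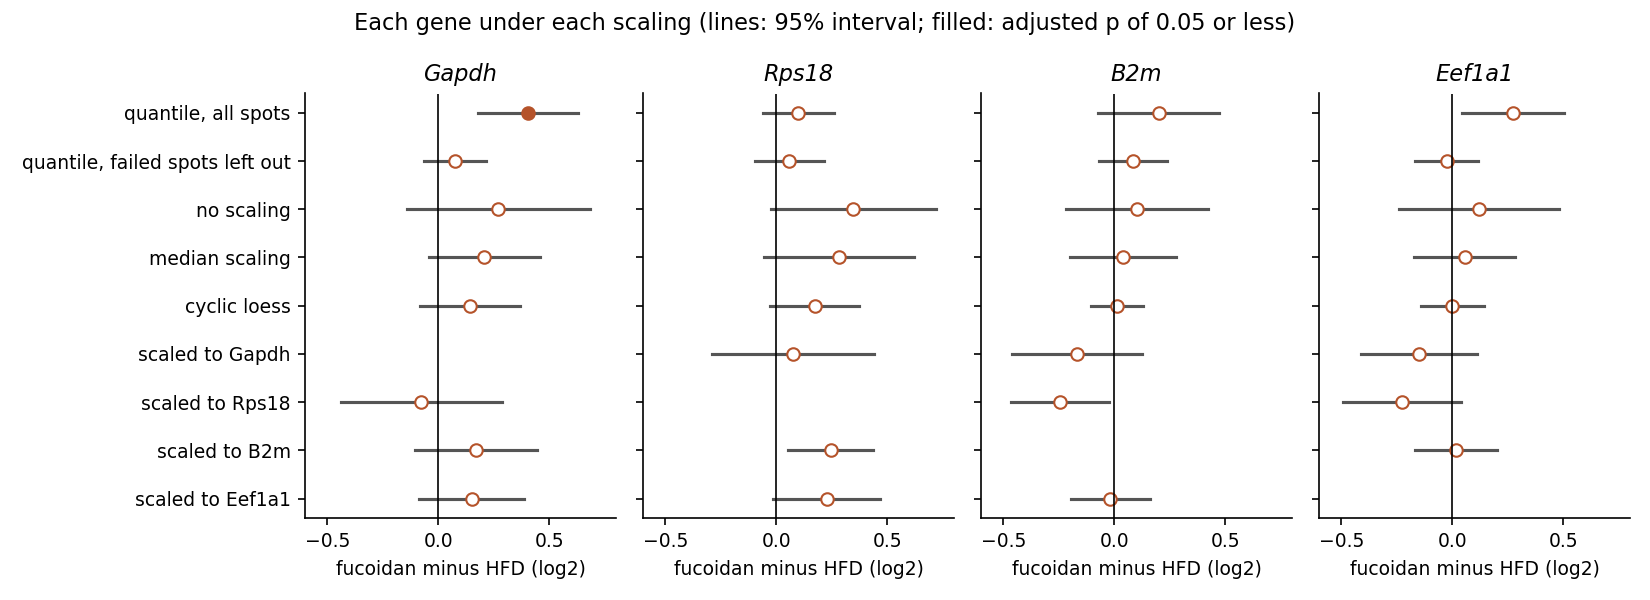
Fucoidan minus HFD log2 difference of each member (horizontal axis, limma estimate with 95% interval) under 9 treatments of the arrays; a gene has no value when the arrays are scaled to it. The 1 filled point, for an adjusted p of 0.05 or less, is Gapdh after quantile normalisation of all spots at 0.41, and Gapdh lies at 0.07 with the failed spots left out.

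The members were read beside the other genes of their processes. Of the 27 customary reference genes listed, 8 were on the array, all 8 were tested and all had a positive difference on the quantile scale, with a median of 0.18 where the median of all genes tested was 0.04 and 59.1% of them lay above 0. The 8 include the 4 members. Gapdh was the 1 called, where 3.87% of all genes were called higher. The median of these 8 was 0.067 without the failed spots, 0.093 with cyclic loess and 0.026 when the arrays were scaled to all 4 members. Rplp0 differed by 0.18 (adjusted p = 0.126), Hprt by 0.17 (adjusted p = 0.239), Pgk1 by 0.19 (adjusted p = 0.264) and Actb by 0.09 (adjusted p = 0.657). Of 9 listed genes of glucose uptake and glycolysis on the array, 6 were tested and 1, again Gapdh, was called (against the same 3.87%), and 5 of the 6 differences were positive. Among the others were Slc2a2, the glucose transporter of hepatocytes (0.27, adjusted p = 0.346), Pklr, the liver's pyruvate kinase (0.21, adjusted p = 0.592), Pgk1, and Pkm, the pyruvate kinase of other tissues (0.10, adjusted p = 0.737). Of 14 genes of translation listed, 6 were on the array, 5 were tested and 0 called, by limma or by the exact permutation test after adjustment. An unadjusted p under 0.05 in limma was held by Eef1a1 and Rplp0, and by 40 of all 181 genes tested. Eef1a1 had the largest difference of the 5. Eif4ebp1, a repressor of cap-dependent translation, was the 1 of the 5 with a negative difference (−0.10, adjusted p = 0.685). The median of the 5 was 0.11, and −0.026 without the failed spots. Of the MHC class I partners and interferon genes listed, B2m was the 1 on the array.

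The genes whose quantile normalised values followed each member most closely over the 12 arrays were sought among 121 others above the detection limit on every array and free of failed or shared spots. For Gapdh they included Rab4a, a small GTPase of endosomal recycling (Pearson r = 0.84), and Rplp0 (0.82). For Rps18 they included Gys2, the liver's glycogen synthase (0.82), and Dld, a subunit shared by mitochondrial dehydrogenase complexes (0.71). For B2m they included Apoc3, an apolipoprotein of triglyceride-rich particles (0.82), and Ceacam1, an adhesion receptor (0.69). For Eef1a1 they were Apoc3 (0.89), C3, the central complement protein (0.76), and Acsl1, which activates long-chain fatty acids (0.75). These describe 12 arrays of 1 slide that share a normalisation, and over all candidates the median r was 0.13 to 0.24 on this scale and 0.56 to 0.75 without scaling. Without scaling, the likeness of several was no longer high among the candidates. For Eef1a1, Apoc3, Acsl1 and C3 ranked 59, 64 and 84 of 121, with r of 0.76, 0.73 and 0.66 against a median of 0.75. Apoc3 ranked 39 and Ceacam1 30 for B2m, and Rplp0 ranked 35 for Gapdh. The others named stayed near the top, with Rab4a at rank 3 for Gapdh, and Gys2 and Dld at ranks 3 and 6 for Rps18.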

How the data were processed

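Liver RNA of 12 mice was measured, 1 array each. Scanning was at 532 nm and quantification in GenePix Pro 6.0.1.27, per the file headers; the deposited raw table holds linear intensity as foreground, local background and difference, unscaled between arrays. Later steps by the authors are not given in the sources used here. All 12 mice's columns were used (0 unused). The deposited value table, also intensity (354 rows without gene names, −27 to 50344, column medians 102.5 to 171), matched 0 member spots and was not used. Its scale and centring stay unknown.

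In R 4.3.3 with limma 3.58.1, intensities were corrected (normexp, offset 50), quantile normalised over 354 gene spots and averaged per probe, then per gene. Genes whose foreground exceeded the mean plus 2 SD of 41 control and empty spots on at least 6 arrays were tested (181, and 149 not). Differences are fucoidan minus HFD on log2, two-sided, adjusted by Benjamini-Hochberg over all genes tested. Ratios used unscaled values and exact permutation over 924 relabelings. Of 331 names, 315 were current symbols, 15 synonyms and 1 kept as listed. Spots are named by set, column and row. Named genes were the members, the 3 genes closest to each, genes sharing a member's background, and tested genes of the lists, some of which are not reported here. The members and lists were chosen with earlier results of these data known. The labels do not say outright that each sample is 1 animal, as taken here, and p-values measure the spread between these 12 samples. Alternatives covered background, scaling, spots used, averaging, filter, test, replicate number and each mouse left out. On 20 simulated tables of 185 genes the fit called 0.72 of genes shifted by 0.5 and 0.99 of genes shifted by 1, and a share of 0.116 of its calls was false. Figures used Python 3.11.15 and matplotlib 3.10.9.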

Additional observations from a re-analysis of the deposited data

Results flagged for a closer look

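In 70 groups of 6 values tested for a mouse far from the others, 6 held one, where chance gives about 1 in 20. Eef1a1 without scaling was at 14.43 log2 units in fucoidan replicate 3, with the next mouse of its group at 13.92, and 2 of its spots, in column 3 and row 3 of sets A and B, were at 14.62 and 14.32 in the same mouse, next to 14.08 and 13.86. After scaling to the median, fucoidan replicate 2 was at 10.57 for Rps18, below a next value of 11.23, and at 14.54 for B2m, below 14.90. The log2 ratio of Gapdh over Rps18 was 2.94 in fucoidan replicate 2, above a next value of 2.31.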

How the results depend on the processing

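Gapdh kept its direction except when scaled to Rps18, but its call was lost without scaling (0.27), with median scaling (0.21), cyclic loess (0.14), scaling to Rps18 (−0.076), B2m (0.17), Eef1a1 (0.15) or all 4 genes (0.061), without the failed spots (0.074) and without failed and shared-background spots (0.090), and over all alternatives its adjusted p ran from 0.0110 to 0.747. B2m turned to −0.17, −0.24, −0.017 and −0.11 when scaled to Gapdh, Rps18, Eef1a1 and all 4 genes. Eef1a1 turned to −0.15, −0.23 and −0.090 when scaled to Gapdh, Rps18 and all 4, and to −0.026 without the failed spots, with or without the shared-background ones. Under scaling to single genes these values are by construction each gene's unscaled difference minus that of the gene or genes scaled to, and the cause of the turn without the failed spots was not tested. The setting without shared-background spots dropped 5 member spots. It kept the Gapdh_3' spot of set A at column 11, row 18, whose background is shared with the groups exchanged. Cyclic loess turned B2m over Eef1a1 to 0.012 and the Gapdh probe ratio to −0.00929, and the Eef1a1 spots at column 3, row 3 to −0.042 and −0.00646. Without the failed spots, the turned spots in set A were Gapdh_3' at column 3, row 7 (−0.00435) and Rps18 at column 9, row 3 (−0.00020). In set B they were the Eef1a1 spots (−0.027 and −0.064, the same without shared-background spots).

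The spread of Rps18 between mice was 0.30 without scaling, 0.28 with median scaling and 0.29 scaled to Gapdh. The median of the reference list turned to −0.070 and −0.15 when scaled to Gapdh and Rps18, that of glycolysis to −0.052 scaled to Rps18, and that of translation to −0.090, −0.20 and −0.029 scaled to Gapdh, Rps18 and all 4, and to −0.026 and −0.014 without failed and without failed or shared-background spots.

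The 15 genes called became 25 with the listed difference, and 0 without the failed spots, with or without shared ones (limma, 15 at an unadjusted p under 0.05). With the listed difference 22 genes were called scaled to B2m and 21 scaled to Eef1a1. Without failed spots 0 were called under each single-gene scaling. The 5 member spots called became 0 without scaling, with median scaling, with cyclic loess and without failed spots, 1 by exact permutation and 3 with array weights, which gave 78 genes scaled to Rps18. With the listed difference they became 7. Among these was the Eef1a1 spot of set B at column 6, row 18 (0.32, limma adjusted p = 0.0400).

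Replicate numbers follow accession order and pair nothing (same-number correlations −0.23 to 0.18). With the replicate number as a block Gapdh stayed at 0.41 (adjusted p = 0.0513), and 9 genes were called, or 7 scaled to Eef1a1. With each mouse left out in turn, Gapdh ran from 0.35 to 0.46, the genes called from 9 to 17, the member spots called from 2 to 8, Rps18 over B2m from 0.20 to 0.30, B2m over Eef1a1 from −0.064 to 0.013, the Gapdh probe ratio from −0.013 to 0.020, and the genes called scaled to Gapdh from 8 to 15, to Rps18 from 12 to 90, to B2m from 10 to 15 and to Eef1a1 from 9 to 13. The slide and the value table could not be fitted or tied to spots, and no Rps18 result exists without shared-background spots. Spots near background limit the dim genes, not these bright members.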
